A study of Mus musculus with 18 samples.

Results

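The libraries LMA 4, LMA 5 and LMA 6 of mice given LPPC/MP/CD28 were compared with LMA 1, LMA 2 and LMA 3 of the same treatment group, 3 samples against 3, taken from 6 LMA samples among 18 in the series. All came from spleen, labelled as spleenocytes of female C57BL/6J mice of 4-6 weeks. LPPC, a complex of lipid, PEG and PEI, carries proteins adsorbed on its surface, MP are membrane proteins of dendritic cells, and CD28 stands for the anti-CD28 antibody that was adsorbed with them. In the study, mice were first immunised with LPPC/MP, which is where the 3 LM samples stand, and the LMA mice then received LPPC/MP/CD28 as a further modulation given 1 or 2 times. The sample titles number the LMA libraries 1 to 6 and do not say how many modulations each had. LMA 4 to 6 were told from LMA 1 to 3 by their means over the genes that the study lists for 2 modulations, which equal those of LMA 4 to 6. The study names 2 groups given LPPC/MP/CD28, with 1 and with 2 modulations, which by elimination leaves 1 for LMA 1 to 3. No label states the number for LMA 1 to 3. The comparison therefore asks in what the libraries behind the reported profile differed from the other libraries of the group, and it had no group given LPPC/MP a further time without antibody.

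The labels carry limits of their own. The tissue is given as spleen while the attached protocol text describes B16F10 melanoma tumours. The labelled age range starts and ends below the one that the study's methods give for its mice. The mice are labelled female, while the Y-linked gene Eif2s3y was at 34.5 to 36.8 FPKM in the 6 LMA libraries and the X-inactivation transcript Xist at 4.84 to 7.20 FPKM in the same libraries. No source used here says that the libraries came from separate animals, so each p-value measures the spread between libraries, which may be technical. The libraries held markers of several lineages, with the B cell gene Cd79a at 64.0 to 98.3 FPKM and the T cell gene Cd3e at 6.93 to 11.5 FPKM. Spp1, the osteopontin gene of activated macrophages, was far above both, at 6235 to 6966 FPKM. These levels do not settle the conflict between the tissue label and the protocol text.

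CD28 is the costimulatory receptor of T cells. Its ligands CD80 and CD86 sit on antigen-presenting cells, and CTLA4 competes for the same ligands and restrains the response. Signalling through CD28 together with the T cell receptor favours IL-2 production, survival, glycolysis and cell division. In the spleen, T cells and B cells lie in the white pulp, where stromal cells place them by means of the chemokines CCL19, CCL21 and CXCL13, and the red pulp holds macrophages that clear red cells and recycle iron.

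The 6 libraries were of similar depth, with 6.76, 7.59 and 7.05 gigabases of aligned sequence in LMA 1 to 3 and 6.23, 5.99 and 6.94 in LMA 4 to 6. FPKM is fragments per kilobase of transcript, scaled to the mapped fragments of the library, and differences were tested on log2(FPKM + 0.5), which understates changes of genes with low values. The root mean square difference of log2 values over the 11047 protein-coding genes tested was 0.20 to 0.26 within LMA 1 to 3, 0.22 to 0.23 within LMA 4 to 6 and 0.20 to 0.26 across the sets. The closest pairs, at 0.20 each, were LMA 1 with LMA 4, which belong to different sets, and LMA 2 with LMA 3 of the same set. The first principal component, with 33.3% of the variance, placed LMA 1 and LMA 4 at 10.7 and 10.2, LMA 6 at 3.36, LMA 5 at -1.87, LMA 3 at -9.03 and LMA 2 at -13.4. The main axis of difference among the LMA libraries thus ran across the sets, with LMA 1 and LMA 4 at the same end.

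Few genes passed the adjusted threshold between the sets. In limma, 2 of 11047 genes (0.0181%) passed an adjusted p of 0.05, Gatad2b lower and Trim3 higher in LMA 4 to 6. At an unadjusted p under 0.05 there were 905 genes (8.19%), 639 of them higher (5.78%) and 266 lower (2.41%). Differences were small, with 96 genes past 0.5 and 4 past 1 on the log2 scale and a median standard error of 0.07. The median log2 difference of all genes was 0.02, and 58.6% of genes lay above 0. That balance depended on the scaling: after scaling by the median of ratios 725 genes had an unadjusted p under 0.05, of which 327 were higher, and the median was 0.00. For 1689 genes (15.3%) the 3 values of 1 set did not overlap those of the other, with 1262 higher (11.4%) and 427 lower (3.87%) in LMA 4 to 6. After that scaling 12.8% did not overlap, 6.63% higher and 6.16% lower.

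Gatad2b encodes a subunit of the NuRD chromatin remodelling complex. The gene (ENSMUSG00000042390) lies on chromosome 3 of GRCm38 from 90293178 to 90363407 and has 8 annotated transcripts. Its level was 41.3, 40.8 and 41.6 FPKM in LMA 1 to 3, in that order, and 26.8, 27.7 and 27.9 FPKM in LMA 4 to 6. The sets lay well apart, and the log2 difference was -0.58 (standard error 0.03, adjusted p = 0.00381 in limma). The LM libraries fell on both sides, with LM 2 at 26.7 FPKM and LM 1 and LM 3 at 42.3 and 39.8 FPKM. Without LMA 3 the adjusted p in limma was 0.0611, and without any other LMA library it stayed under 0.05.

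Trim3 encodes a RING-finger protein of the TRIM family. The gene (ENSMUSG00000036989) lies on chromosome 7 from 105604463 to 105633571 and has 9 annotated transcripts. It was at 3.77, 3.58 and 3.92 FPKM in LMA 1 to 3 and at 6.88, 7.59 and 7.17 FPKM in LMA 4 to 6, a log2 difference of 0.86 (standard error 0.06, adjusted p = 0.0167 in limma). In LM it was at 6.91, 6.07 and 3.57 FPKM, so that single LM libraries again took the value of either set. The call of Trim3 was lost whichever 1 of the 6 LMA libraries was left out, each time with an adjusted p over 0.05 in limma.

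**Figure D1:**
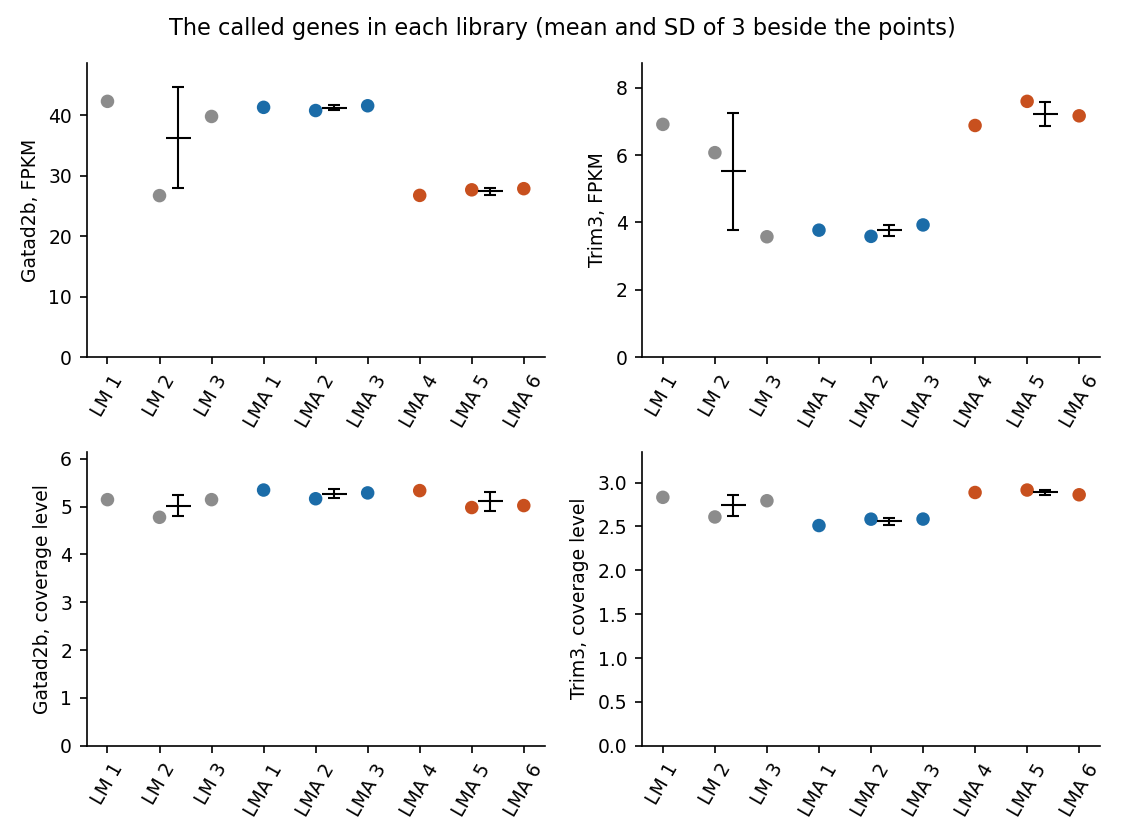
Gatad2b and Trim3 in each LM and LMA library as FPKM (top) and as coverage level (bottom), with the mean and SD of each set of 3 beside its points. LMA 4 to 6 stand apart from LMA 1 to 3 in FPKM for both genes, while in coverage level Gatad2b lies between 4.98 and 5.35 in all 6 LMA libraries.

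Both genes were also read on another column. The deposited tables give a coverage for each gene, and this coverage divided by the gigabases of the library is called the coverage level here. How the authors' software formed it for genes with several transcripts is not given in the sources used here. Of 979 genes with 1 annotated transcript, 960 had the same log2 difference within 0.01 on both measures. The coverage level of Gatad2b was 5.35, 5.17 and 5.29 in LMA 1 to 3 and 5.34, 4.98 and 5.02 in LMA 4 to 6, a log2 difference of -0.04 (adjusted p = 0.723 in limma). That of Trim3 was 2.51, 2.58 and 2.58 against 2.89, 2.92 and 2.86, a log2 difference of 0.15 (adjusted p = 0.427 in limma). Trim3 stayed higher in every library of LMA 4 to 6 by a smaller amount, whereas the values of Gatad2b overlapped. On the coverage level 0 of 10660 genes passed, 1173 had an unadjusted p under 0.05 in limma, 870 of these higher, and 24 genes were past 0.5 on the log2 scale. The part of transcript assignment in the FPKM differences was not tested.

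Other genes with many transcripts had the same feature. Foxp1, a transcription factor of lymphocyte development with 31 transcripts, was at 12.6, 23.2 and 14.8 FPKM in LMA 1 to 3 and at 6.44, 12.1 and 5.16 FPKM in LMA 4 to 6, a log2 difference of -1.09 against -0.03 on the coverage level. Ikbke, a kinase of the interferon response, Cul1, the scaffold of the SCF ubiquitin ligases, and Blvra, which reduces biliverdin, had log2 differences of -0.57, -0.34 and -0.50 in FPKM and of 0.04, -0.06 and 0.05 in coverage level. None of these 4 genes passed in limma (adjusted p = 0.0834 for Ikbke and Cul1 and 0.6 for Blvra and Foxp1). Among 10338 genes whose mean reached 1 FPKM, 96 had an SD of at least 0.5 on the log2 scale over the 6 LMA libraries. In 72 of these the SD of the coverage level was under 0.25, and 71 of the 72 have more than 1 transcript, as do 91.7% of the 10338 genes.

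**Figure D2:**
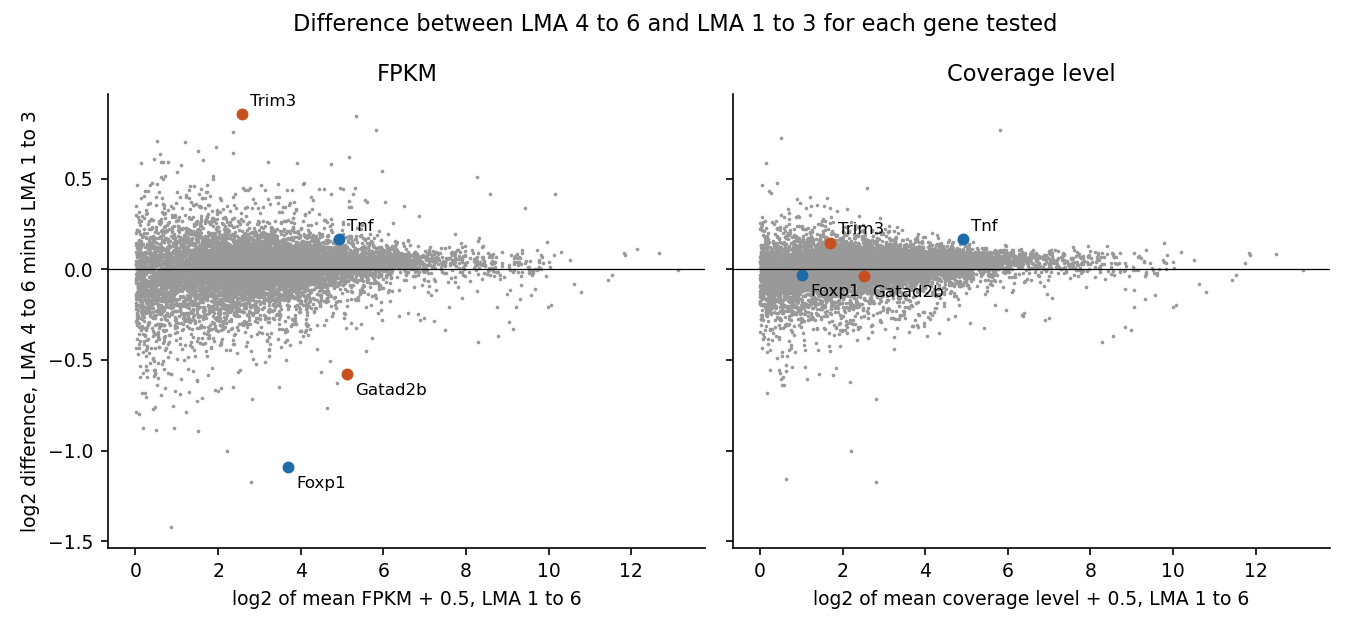
Log2 difference of LMA 4 to 6 minus LMA 1 to 3 for each gene tested (vertical axis) against its mean level (horizontal axis, log2), in FPKM on the left and in coverage level on the right. The called genes Trim3 and Gatad2b are orange, and Tnf and Foxp1 blue; Foxp1 lies at -1.09 in FPKM and at -0.03 in coverage level, while Tnf is at 0.17 in both.

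Some small differences were alike on both measures. The sets did not overlap, in the same direction, on both measures for 1212 genes, and the unadjusted p was under 0.05 on both in the same direction for 587. Nat9, an N-acetyltransferase gene, was at 11.5, 10.6 and 11.4 FPKM in LMA 1 to 3 and 14.9, 14.7 and 14.0 FPKM in LMA 4 to 6, a log2 difference of 0.37 in FPKM (standard error 0.05, adjusted p = 0.324 in limma) and of 0.28 in coverage level. Dusp4, a phosphatase that restrains MAP kinases, was at 18.2, 17.9 and 18.1 FPKM and at 20.7, 20.7 and 20.1 FPKM, a log2 difference of 0.17 on both measures (adjusted p = 0.6 in limma). For both genes each library of LMA 4 to 6 was above each of LMA 1 to 3, and neither passed the adjusted threshold.

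Lars2, which encodes the mitochondrial leucyl-tRNA synthetase, had a larger difference and a wide spread. It was at 38.7, 40.7 and 42.4 FPKM in LMA 1 to 3 and at 51.1, 82.3 and 79.7 FPKM in LMA 4 to 6, a log2 difference of 0.77 on both measures (standard error 0.17 in FPKM, adjusted p = 0.6 in limma). LMA 4 was the lowest of its set and nearest to LMA 1 to 3, so leaving it out widens the difference. Without it the difference was 0.99 with an adjusted p of 0.0113 in limma. Lars2 was singled out after its values were seen, so that p-value adds no support. In LM the gene ranged from 51.1 to 95.7 FPKM, so that the lower values were those of LMA 1 to 3.

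Genes of cell division and DNA replication had slightly higher values in LMA 4 to 6. Of 38 members tested, 0 passed the adjusted threshold in limma, where 0.0181% of all genes did, 13 were higher and 0 lower at an unadjusted p under 0.05 (5.78% and 2.41% of all genes were), and 31 had a difference above 0. The sets did not overlap for 18 members, all higher, where 11.4% of all genes were higher. After scaling by the median of ratios this held for 15 members, where 6.63% of all genes were higher, and on the coverage level for 18, where 13.4% were. The median log2 difference was 0.07, beside 0.02 for all genes. The list score, the mean log2 value of its members, was 4.61, 4.57 and 4.60 in LMA 1 to 3 and 4.66, 4.65 and 4.66 in LMA 4 to 6. In LM the score was 4.63, 4.58 and 4.63, between the sets or within LMA 1 to 3. Of the scores of 54 lists, 3 were higher and 2 lower in LMA 4 to 6 without overlap. The higher were this list, glycolysis and hypoxia, and cholesterol synthesis and uptake. The lower were NF-kB subunits and inhibitors, and colony-stimulating factors and receptors. With 3 libraries per set an exact permutation test cannot give a p under 0.1, and members of a list can vary together.

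The members with the smallest p were Uhrf1, Top2a and Cdc20. Uhrf1 carries DNA methylation over to the new strand at replication forks. It was at 33.0, 32.6 and 33.0 FPKM in LMA 1 to 3 and 37.2, 36.4 and 36.9 FPKM in LMA 4 to 6, a log2 difference of 0.16 (standard error 0.03, adjusted p = 0.6 in limma). Top2a, the topoisomerase that untangles chromosomes before mitosis, was at 76.3, 72.7 and 75.8 FPKM and at 82.7, 83.9 and 81.7 FPKM. Its log2 difference was 0.14 in FPKM and 0.05 in coverage level. Cdc20, which activates the anaphase-promoting complex, was at 20.3, 19.8 and 20.6 FPKM and at 21.9, 22.9 and 22.5 FPKM, a log2 difference of 0.15 on both measures. The replicative helicase subunits Mcm7 and Mcm3 and the sliding clamp Pcna had log2 differences of 0.11, 0.11 and 0.09, with no overlap between the sets. The proliferation marker Mki67 was at 70.5, 66.9 and 70.4 FPKM against 71.1, 70.0 and 72.3 FPKM, which overlapped, and its log2 difference was 0.04 (95% interval -0.04 to 0.11).

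Promoters of genes of the G2 and M phases commonly carry the box CCAAT, which is bound by the factor NF-Y. The promoters of these 3 genes are shown because they led the list. Each sequence is the 250 bases before the RefSeq start on GRCm38.p6, read 5′ to 3′ along the strand of the gene, with CCAAT and its reverse complement ATTGG in capitals. The Uhrf1 window is chr17:56304063-56304312 on the plus strand, the start with more matches among 2, that of Top2a is chr11:99024190-99024439 on the minus strand, and that of Cdc20 is chr4:118437344-118437593 on the minus strand.
Uhrf1: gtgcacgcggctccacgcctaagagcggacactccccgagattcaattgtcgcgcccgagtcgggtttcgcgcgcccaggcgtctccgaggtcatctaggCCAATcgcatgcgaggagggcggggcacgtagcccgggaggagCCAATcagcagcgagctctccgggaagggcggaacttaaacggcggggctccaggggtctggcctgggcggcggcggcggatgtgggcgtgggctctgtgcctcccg
Top2a: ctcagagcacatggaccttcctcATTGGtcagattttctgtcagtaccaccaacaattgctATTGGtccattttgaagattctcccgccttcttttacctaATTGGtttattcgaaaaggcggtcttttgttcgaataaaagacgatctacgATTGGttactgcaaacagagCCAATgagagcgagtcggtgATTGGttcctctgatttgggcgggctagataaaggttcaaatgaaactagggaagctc
Cdc20: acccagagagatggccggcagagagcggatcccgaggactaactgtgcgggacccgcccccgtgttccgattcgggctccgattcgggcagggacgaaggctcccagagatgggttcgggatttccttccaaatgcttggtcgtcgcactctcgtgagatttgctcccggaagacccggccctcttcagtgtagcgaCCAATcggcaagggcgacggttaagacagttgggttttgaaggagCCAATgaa
These windows held 2, 6 and 2 matches. Of 27025 genes with a window in the table, 37.5% held at least 1 match on either strand and 11.5% at least 2, and of the 8740 tested genes with a window 41.1% and 15.8% did. Only 30 of the 38 members had a window, too few for a share over the list, and a match is a description of these letters and no evidence of binding.

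Metabolic lists had more members higher than lower, to an extent that depended on the scaling. Of 26 genes of glycolysis and hypoxia, 13 were higher and 0 lower at an unadjusted p under 0.05, where 5.78% and 2.41% of all genes were, and the sets did not overlap for 13 higher and 1 lower, Hif1a, where 11.4% and 3.87% of all genes were. After scaling by the median of ratios the count was 4 higher and 1 lower, nearer the 6.63% and 6.16% of all genes, and on the coverage level 17 higher and 0 lower, where 13.4% and 4.05% were. Adm, a vasodilator peptide induced by hypoxia, was at 15.1, 14.6 and 15.8 FPKM in LMA 1 to 3 and 16.8, 17.2 and 18.2 FPKM in LMA 4 to 6, a log2 difference of 0.19 (adjusted p = 0.6 in limma). Hk1, which commits glucose to glycolysis, and Pkm, the pyruvate kinase of activated leukocytes, had log2 differences of 0.12 and 0.10. Hif1a, the factor that drives many genes of this list, was at 25.1, 26.4 and 24.2 FPKM against 24.1, 23.4 and 23.7 FPKM, a log2 difference of -0.08 in FPKM and of -0.01 in coverage level.

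Of 24 genes of cholesterol synthesis and uptake, 9 were higher and 0 lower at an unadjusted p under 0.05, where 5.78% and 2.41% of all genes were. The sets did not overlap for 10, all higher, where 11.4% of all genes were, and for 6 higher and 1 lower after scaling by the median of ratios, where 6.63% and 6.16% were. Mvk, the mevalonate kinase, was at 7.71, 7.91 and 7.77 FPKM in LMA 1 to 3 and at 9.40, 8.83 and 8.67 FPKM in LMA 4 to 6, a log2 difference of 0.19 in FPKM and 0.24 in coverage level (adjusted p = 0.6 in FPKM and 0.427 in coverage level, limma). Of 23 genes of the lysosome and of lipid-handling macrophages, 8 were higher and 0 lower at an unadjusted p under 0.05 in limma, where 5.78% and 2.41% of all genes were. For 12 the sets did not overlap, all higher, where 11.4% of all genes were (5 after scaling by the median of ratios, where 6.63% were). The lysosomal protease Lgmn was at 221, 223 and 225 FPKM against 239, 236 and 241 FPKM, a log2 difference of 0.10 (adjusted p = 0.6 in limma). Spp1, the most abundant of these, had a log2 difference of 0.09.

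**Figure D3:**
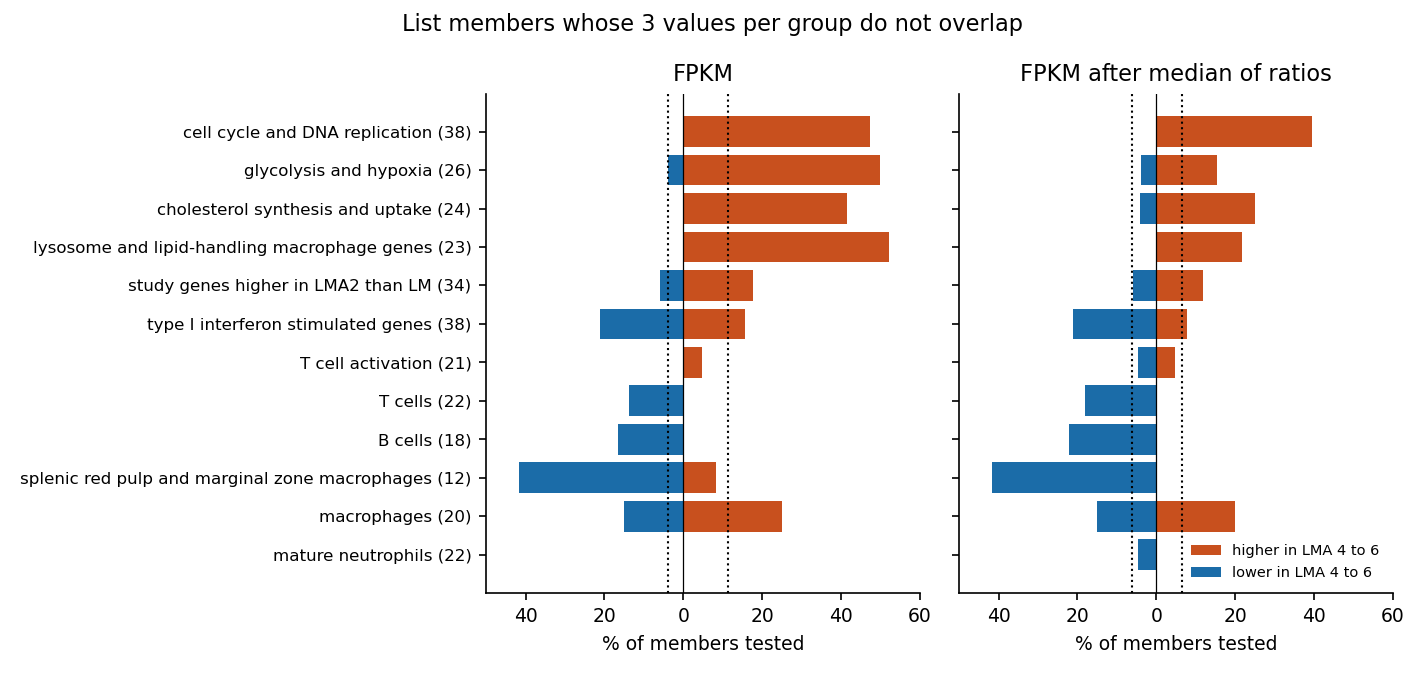
Share of the tested members of 12 gene lists (number tested in brackets) whose 3 values in LMA 4 to 6 lie all above (orange) or all below (blue) those in LMA 1 to 3, in % of members, for FPKM on the left and for FPKM scaled by the median of ratios on the right. Dotted lines give the shares of all genes, 11.4% higher and 3.87% lower on the left and 6.63% and 6.16% on the right; the cell cycle list, at 18 and 15 of 38 members, is the farthest above the line on the right.

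Markers of B and T cells had lower medians in LMA 4 to 6, and none passed in limma. The B cell list score was 4.00, 4.35 and 4.27 in LMA 1 to 3 and 4.01, 4.04 and 3.75 in LMA 4 to 6, and the T cell score was 2.46, 2.89 and 2.77 against 2.57, 2.59 and 2.31. LMA 2 was the highest in both and LMA 6 the lowest, and both scores overlapped between the sets. LMA 2 also had the lowest cell cycle score of the 6, and LM 2, with the highest B and T cell scores of LM, had the lowest cell cycle score of LM. The part of cell composition in the differences of the cell cycle and metabolic lists was not tested. In bulk RNA, fewer cells of a type and less RNA per cell cannot be told apart.

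Of 18 B cell markers, 0 were higher and 4 lower at an unadjusted p under 0.05, where 5.78% and 2.41% of all genes were. For 3 the sets did not overlap, all lower, where 3.87% of all genes were, and the median log2 difference was -0.26. Pax5, the factor that holds B cell identity, was at 13.1, 16.6 and 12.8 FPKM in LMA 1 to 3 and 10.9, 11.4 and 7.58 FPKM in LMA 4 to 6. Its log2 difference was -0.50 in FPKM and -0.27 in coverage level (adjusted p = 0.6 in FPKM, limma). Cd79a, a signalling chain of the B cell receptor, was at 79.2, 98.3 and 91.4 FPKM against 80.6, 80.3 and 64.0 FPKM, which overlapped. Without LMA 1 and LMA 4, a choice made after the values were seen, the median was -0.40. Of the 18, 15 were then lower at an unadjusted p under 0.05 in limma, where 4.72% of all genes were. LMA 1 had the lowest B cell score of its set, so leaving it out widens the difference, and this count adds no support.

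Of 22 T cell markers, 0 were higher and 4 lower at an unadjusted p under 0.05, where 5.78% and 2.41% of all genes were. For 3 the sets did not overlap, all lower, where 3.87% of all genes were, and the median log2 difference was -0.23. Lat, the adaptor below the T cell receptor, was at 7.48, 9.75 and 8.01 FPKM in LMA 1 to 3 and 7.44, 6.88 and 6.21 FPKM in LMA 4 to 6. Cd3e of the receptor complex was at 7.87, 11.5 and 10.9 FPKM against 9.35, 9.25 and 6.93 FPKM, and the coreceptor Cd4 at 5.47, 7.52 and 6.67 FPKM against 5.56, 5.43 and 4.71 FPKM. The values of both overlapped. Without LMA 1 and LMA 4, 12 of the 22 were lower at an unadjusted p under 0.05 in limma, where 4.72% of all genes were. LMA 1 had the lowest T cell score of its set too, so this count adds no support either. The class II gene H2-Aa, which presents antigen on B cells and other cells, had a log2 difference of -0.33 (adjusted p = 0.6 in limma), and 10 of the 11 genes of the class II list had a difference below 0.

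Several genes of red pulp and marginal zone macrophages had lower values in LMA 4 to 6, and none passed the adjusted threshold in limma. Of 12 tested, 1 was higher and 2 were lower at an unadjusted p under 0.05 in limma, where 5.78% and 2.41% of all genes were. The sets did not overlap for 1 higher and 5 lower, where 11.4% and 3.87% of all genes were. On the coverage level these were 2 higher and 4 lower, where 13.4% and 4.05% of all genes were. Slc40a1, the exporter of iron, was at 8.92, 10.5 and 9.83 FPKM in LMA 1 to 3 and 8.71, 8.18 and 5.86 FPKM in LMA 4 to 6, a log2 difference of -0.36 (adjusted p = 0.6 in limma). Vcam1, an adhesion molecule of these cells, was at 10.3, 14.2 and 11.1 FPKM against 9.52, 10.2 and 7.32 FPKM. Spic, the factor that specifies red pulp macrophages, was at 3.16, 3.88 and 3.24 FPKM against 3.16, 3.16 and 2.28 FPKM, so that the separation rested on a small gap. Hmox1, which degrades haem, ran the other way, at 271, 267 and 264 FPKM against 277, 277 and 283 FPKM. LMA 6 was the lowest library for the first 3 of these genes. The list score overlapped between the sets, at 2.42, 2.79 and 2.62 against 2.37, 2.48 and 2.19.

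The 3 chains of C1q, which starts the classical complement pathway and is made by tissue macrophages, had lower means in LMA 4 to 6. C1qc was at 9.75, 10.6 and 9.33 FPKM in LMA 1 to 3 and 7.25, 8.46 and 6.54 FPKM in LMA 4 to 6, a log2 difference of -0.40 (standard error 0.10, adjusted p = 0.6 in limma). C1qb was at 10.4, 11.9 and 8.79 FPKM against 8.14, 8.29 and 6.12 FPKM, and C1qa at 11.3, 15.2 and 13.3 FPKM against 11.8, 10.3 and 8.89 FPKM. C1qc and C1qb did not overlap between the sets and C1qa did, and all 3 had differences of -0.35 to -0.44 on the coverage level. Cd55, which protects cells from complement, had a log2 difference of -0.33 in FPKM and -0.26 in coverage level. Of 18 complement genes tested, 0 were higher and 4, named here, were lower at an unadjusted p under 0.05, where 5.78% and 2.41% of all genes were. LM was at 11.2 to 15.5 FPKM for C1qc, above every LMA library.

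Among interferon-stimulated genes, members without overlap were found in both directions. Of 38 tested, 0 passed in limma, and 4 were higher and 3 lower at an unadjusted p under 0.05, where 5.78% and 2.41% of all genes were. The sets did not overlap for 6 higher and 8 lower, where 11.4% and 3.87% of all genes were. After scaling by the median of ratios these were 3 higher and 8 lower, where 6.63% and 6.16% of all genes were, and on the coverage level 7 higher and 4 lower, where 13.4% and 4.05% were. The median log2 difference was 0.01. Ifit3, an antiviral effector, was at 1.28, 1.46 and 1.40 FPKM in LMA 1 to 3 and 0.848, 1.11 and 0.710 FPKM in LMA 4 to 6, a log2 difference of -0.45 (adjusted p = 0.6 in limma). Oas1a, which activates RNase L, was at 27.9, 25.9 and 27.2 FPKM against 29.5, 30.4 and 29.4 FPKM, a log2 difference of 0.14. Of 17 interferon-inducible GTPases, which act on intracellular pathogens, 0 were higher and 2 lower at an unadjusted p under 0.05, where 5.78% and 2.41% of all genes were. The largest of the latter in size was that of Gbp9, at 2.83, 3.76 and 3.31 FPKM against 2.52, 2.37 and 2.33 FPKM, with a log2 difference of -0.38.

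Among the genes with the widest spread over the LMA libraries were genes of stroma, whose values did not follow the sets. Cxcl13, the chemokine of B cell follicles, had 0.209, 15.6 and 10.8 FPKM in LMA 1 to 3 and 0.124, 6.29 and 6.34 FPKM in LMA 4 to 6. Clu, the secreted chaperone clusterin, was at 0.178, 20.4 and 16.5 FPKM and at 0.768, 8.31 and 8.66 FPKM. Both were near 0 in LMA 1 and LMA 4 alone. In LM Cxcl13 was at 16.8, 28.0 and 18.2 FPKM and Clu at 30.6, 48.8 and 35.7 FPKM, above every LMA library.

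The T cell zone chemokine genes behaved alike. Ccl21a was listed at 0 in LMA 1 and LMA 4, at 9.95 and 8.77 FPKM in LMA 2 and 3, at 3.07 and 2.85 FPKM in LMA 5 and 6 and at 16.2 to 27.2 FPKM in LM. It has near-identical copies, so its own level is uncertain. Ccl19 was listed at 0 in the same libraries and at 3.33, 1.79, 0.949 and 1.33 FPKM in LMA 2, 3, 5 and 6. Cxcl12, which retains leukocytes, Sparc and Bgn of the extracellular matrix, Igfbp7, and Ppbp of platelets followed the same order.

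Of the 20 genes with the largest SD over the 6 LMA libraries, 14 had their lowest values in LMA 1 and LMA 4, then LMA 5 and 6, then LMA 2 and 3, with every LM library above every LMA library. For 0 of the 20 did the sets of 3 fail to overlap, where they failed to for 15.3% of all genes. Other genes of the 20 had other orders: Hist2h2aa1, a replication histone gene with near-identical copies, was listed at 0 in LMA 5 and was at 6.42 to 9.03 FPKM in the other LMA libraries. Of the 17 markers of fibroblasts and stroma, 10 passed the filter on low values, which some reached only through LMA 2 and 3, and the mean log2 value of these was -0.53, 2.05 and 1.69 in LMA 1 to 3, -0.69, 0.85 and 0.96 in LMA 4 to 6 and 2.22 to 2.73 in LM. The other 7 were at no more than 0.888 FPKM in any LMA library, and among them Fap and Lum had other orders. The platelet score was 0.15, 1.20 and 1.05 against 0.21, 0.73 and 0.71. Each set of 3 thus held 1 library in which the stromal genes named here were near 0.

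**Figure D4:**
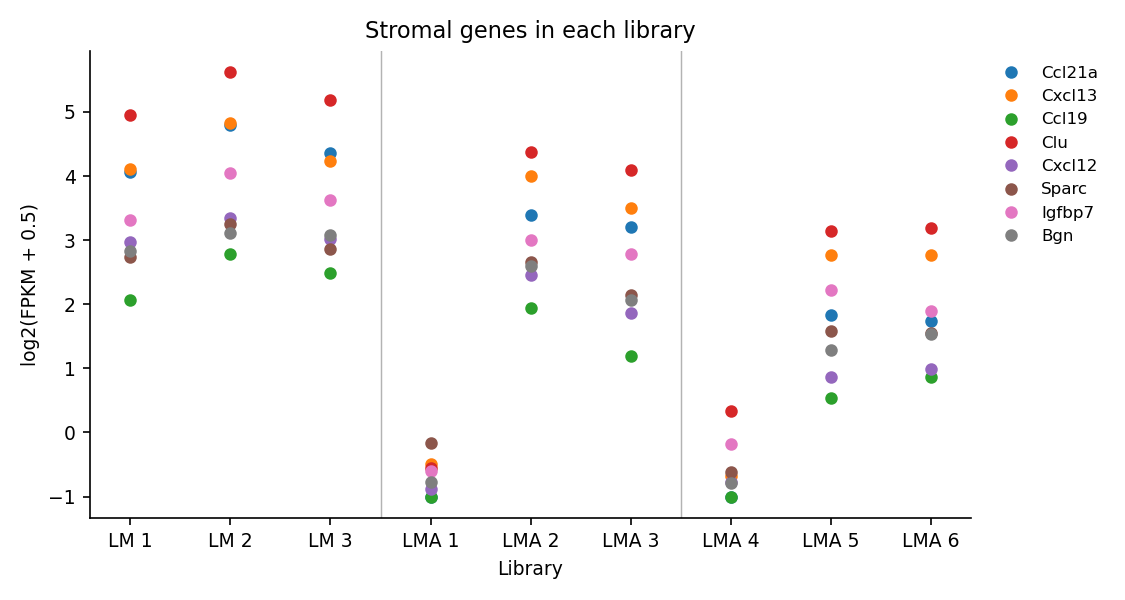
log2(FPKM + 0.5) of 8 stromal genes in each LM and LMA library, with vertical lines between LM, LMA 1 to 3 and LMA 4 to 6. In LMA 1 and LMA 4 every gene is near or below 0 on this scale, LMA 5 and 6 lie below LMA 2 and 3, and the LM libraries are highest.

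The study lists 34 genes as higher and 5 as lower in mice with 2 modulations than in LM. It chose them on LMA 4 to 6 and LM, so the direction of LMA 4 to 6 against LM is a description here, and both comparisons with LM share its 3 libraries. Of the 34, the mean was above LM for 33 in LMA 4 to 6 and for 30 in LMA 1 to 3. The exception in LMA 4 to 6 was Il18, whose mean as printed by the study is also below LM. The median log2 difference from LM was 0.35 in LMA 4 to 6 and 0.30 in LMA 1 to 3. Between the LMA sets the differences of the 34 ran from -0.17 to 0.23 with a median of 0.06, and 26 had a higher mean in LMA 4 to 6. Since the choice favours genes high in LMA 4 to 6, this lean is a description too. At an unadjusted p under 0.05 in limma 4 were higher and 0 lower, where 5.78% and 2.41% of all genes were, and 0 passed (0.0181% of all genes did). The sets did not overlap for 6 higher and 2 lower, where 11.4% and 3.87% of all genes were. Of the 4 tested genes listed as lower, 2 had a mean above LM in LMA 4 to 6. These were N4bp1 and Erap1, also above LM in the study's printed means. Between the LMA sets 0 of the 4 had an unadjusted p under 0.05 in limma, where 8.19% of all genes did.

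Ltf, the lactoferrin of neutrophil granules, was at 98.9, 81.7 and 114 FPKM in LMA 1 to 3, at 112, 100.5 and 85.3 FPKM in LMA 4 to 6 and at 57.2, 68.9 and 57.5 FPKM in LM. Between the LMA sets its log2 difference was 0.02 (95% interval -0.31 to 0.35), and each LMA library lay above each LM library. Mmp8, the collagenase of neutrophils, was at 8.58, 7.77 and 9.82 FPKM, at 9.37, 8.31 and 7.74 FPKM and at 5.11, 5.93 and 4.00 FPKM. Il6, the inflammatory cytokine, was at 0.795, 0.757 and 1.46 FPKM in LMA 1 to 3 and at 1.28, 1.18 and 1.24 FPKM in LMA 4 to 6, which overlapped. The arginase Arg1 was at 0.957, 0.955 and 0.864 FPKM against 0.832, 0.826 and 0.658 FPKM, a log2 difference of -0.17 with no overlap between the sets (adjusted p = 0.67 in limma). In the mature neutrophil list the sets did not overlap for 0 of 22 members, where they did not for 15.3% of all genes. Its scores were 3.99, 3.78 and 4.13 against 4.11, 4.00 and 3.83, all above the 3.48 to 3.62 of LM.

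**Figure D5:**
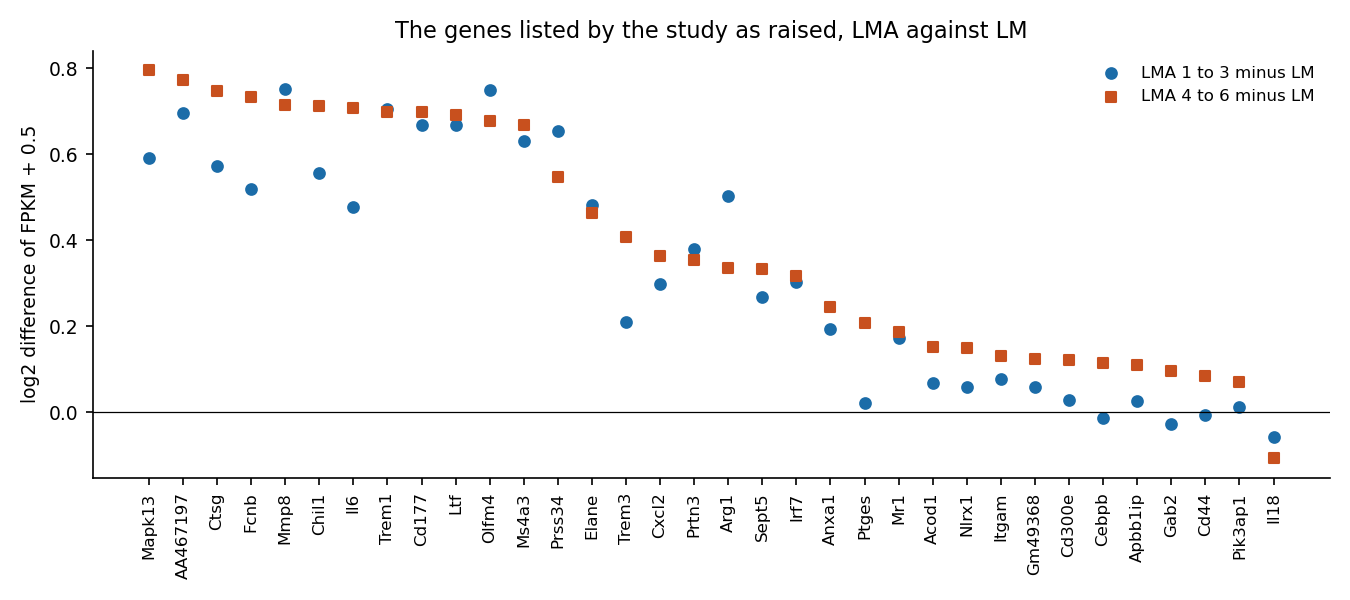
log2 difference from LM of the 34 genes listed by the study as raised, for LMA 1 to 3 (blue circles) and LMA 4 to 6 (orange squares), ordered by the latter. Both sets share the 3 LM libraries; 33 squares and 30 circles have a mean above LM, and the difference between the sets stays between -0.17 and 0.23.

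With LM and both LMA sets in the fit, 5 of 11101 genes (0.045%) passed in LMA 4 to 6 against LM and 1 (0.00901%) in LMA 1 to 3 against LM. At an unadjusted p under 0.05 there were 1464 genes (13.2%) in LMA 4 to 6, 5.95% higher and 7.23% lower, and 1017 (9.16%) in LMA 1 to 3, 3.25% higher and 5.91% lower. The 1 gene was Prss34, a protease of basophils and mast cells and also among the 5. Prss34 was at 7.42, 7.19 and 7.76 FPKM in LMA 1 to 3, at 6.82, 6.78 and 7.05 FPKM in LMA 4 to 6 and at 4.21, 4.72 and 4.75 FPKM in LM. It rose by 0.66 and 0.55 on the log2 scale against LM (adjusted p = 0.0166 and adjusted p = 0.0468 in limma), and LMA 4 to 6 lay below LMA 1 to 3 with a log2 difference of -0.11 that did not pass.

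The other 4 genes had differences of the same sign and smaller size in LMA 1 to 3. Rsad2, the antiviral protein viperin, fell by 1.03 on the log2 scale in LMA 4 to 6 and differed by -0.87 in LMA 1 to 3. Sass6, which builds centrioles, rose by 0.62 and differed by 0.46, and was at 15.5, 14.5 and 15.9 FPKM in LMA 1 to 3 and 16.7, 19.0 and 15.8 FPKM in LMA 4 to 6. Gng11, a G protein subunit, fell by 1.81 and differed by -1.36, and the beta-globin Hbb-bs fell by 1.70 and differed by -1.37. In LMA 4 to 6 each of the 4 had an adjusted p of 0.0468 and in LMA 1 to 3 one of 0.144. Hbb-bs was at 445, 765 and 681 FPKM in LMA 1 to 3, at 455, 579 and 443 FPKM in LMA 4 to 6 and at 1425, 1978 and 1427 FPKM in LM, with LMA 1, LMA 4 and LMA 6 at the low end, and it shares near-identical sequence with Hbb-bt. Without any 1 of LMA 4 to 6, or without LM 3, 0 of the 5 genes passed, and without any 1 of LMA 1 to 3 Prss34 did not pass in the comparison of that set.

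No gene of the CD28 and CTLA4 axis passed between the sets in limma. Of 12 tested, 2 had a difference above 0, and the median log2 difference was -0.12, beside 0.02 for all genes. Cd28 was at 3.71, 3.97 and 4.61 FPKM in LMA 1 to 3, at 4.17, 3.75 and 3.19 FPKM in LMA 4 to 6 and at 2.47, 3.33 and 3.08 FPKM in LM. Its log2 difference between the LMA sets was -0.13 (95% interval -0.40 to 0.13). Ctla4 was at 4.81, 4.34 and 4.23 FPKM, at 4.31, 4.25 and 3.76 FPKM and at 3.58, 3.60 and 3.14 FPKM, with a log2 difference of -0.11 (95% interval -0.29 to 0.08). The values of both genes overlapped between the LMA sets. The ligand Cd86 was at 2.54, 3.84 and 3.39 FPKM in LMA 1 to 3 and 2.72, 2.29 and 2.31 FPKM in LMA 4 to 6 (log2 difference -0.34, adjusted p = 0.6 in limma), and Cd80 and Icosl, the ligand of ICOS, had log2 differences of -0.03 and -0.28.

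Cd274, which encodes PD-L1, the ligand that restrains T cells through PD-1, was at 19.1, 19.0 and 20.4 FPKM in LMA 1 to 3, at 21.2, 21.4 and 21.8 FPKM in LMA 4 to 6 and at 18.4 to 19.3 FPKM in LM. Its log2 difference was 0.13 on both measures (standard error 0.04, adjusted p = 0.6 in limma). It was the 1 member of the 12 tested in which the sets did not overlap, where 15.3% of all genes did not. At an unadjusted p under 0.05 in limma, Cd274 was higher and Cd86 and the receptor Tnfrsf14 were lower, where 5.78% and 2.41% of all genes were. The 21 genes of T cell activation had a median of -0.02, with 2 higher and 0 lower at that threshold, beside the same shares of all genes. The 2 higher ones were the adhesion receptor Cd44, with a log2 difference of 0.09, and the survival gene Bcl2a1b, whose level is uncertain because it has near-identical copies. Il2ra, the high-affinity chain of the IL-2 receptor, was at 0.504 to 0.805 FPKM in all 6.

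Among the cytokines that the study measured as protein, Tnf had the smallest p. It was at 28.2, 27.8 and 27.8 FPKM in LMA 1 to 3, at 31.2, 30.6 and 32.5 FPKM in LMA 4 to 6 and at 29.1, 28.1 and 29.5 FPKM in LM. Each library of LMA 4 to 6 was above the others, and the log2 difference was 0.17 on both measures (standard error 0.03, 95% interval 0.09 to 0.25, adjusted p = 0.6 in limma, both in FPKM). Ifng was at 1.25, 0.926 and 1.57 FPKM against 1.81, 1.47 and 0.867 FPKM, which overlapped (95% interval of the log2 difference -0.44 to 0.62). Il10 was at 17.2, 17.5 and 16.2 FPKM against 17.4, 17.0 and 18.4 FPKM (interval -0.06 to 0.16), and Tgfb1 at 53.8 to 55.9 FPKM against 54.0 to 54.5 FPKM (interval -0.09 to 0.04). Il2 and Il4 were below the level tested, at no more than 0.208 and 0.134 FPKM in any LMA library. Of 21 chemokine genes tested, 9 had a difference above 0, and the median log2 difference was -0.15, beside 0.02 for all genes. The list score was 2.21, 3.23 and 3.07 in LMA 1 to 3 and 2.21, 2.87 and 2.83 in LMA 4 to 6. It thus overlapped and followed the library order of the stromal genes above. Without LMA 1 and LMA 4, a choice made after the values were seen, the median was -0.07. The sets did not overlap for 3 higher and 1 lower, where 11.4% and 3.87% of all genes were. Among these, Ccl3 and Ccl4, which attract monocytes and T cells, had log2 differences of 0.10 and 0.09. Cxcl10, which attracts activated T cells, had one of -0.28, and each of the 3 had an adjusted p of 0.6 in limma.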

How the data were processed

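RNA of 18 spleen samples was sequenced on a NovaSeq instrument, and 6 LMA and 3 LM samples were used. The authors deposited 1 table per sample with FPKM, a coverage signal per gene and a column headed TPM, treated here as a score and not used, since the assembled loci listed beside reference genes fill its sum alone. Which aligner and quantifier made them is not given in the sources used here; the submitters' processing notes name mm10 and GATK 4.2. Of 47729 reference genes, 21620 were protein-coding in GENCODE M21, and the 11047 whose mean over the LMA libraries reached 0.5 FPKM were tested. No counts were used, so counting error is unknown.

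Values on the log2(FPKM + 0.5) scale of the 6 LMA libraries were modelled in limma 3.58.1 under R 4.3.3 (lmFit, then eBayes with its trend option), with Benjamini-Hochberg adjustment over all genes tested and a threshold of 0.05. Comparisons with LM used 9 libraries in 3 groups. Aligned gigabases were the mode of coverage over FPKM in each library, and the coverage level is coverage divided by them; it was added after the data were seen, as was leaving out LMA 1 and LMA 4. Python 3.11.15 handled the tables, using pandas 2.3.3 and numpy 2.4.6 for values and matplotlib 3.10.9 for plots. Other pseudocounts, filters, scalings and sample sets were tried, 20 settings for the main comparison. The fits were tested on simulated data first, with 200 of 11047 genes changed and independent noise of each gene's own spread. Of the changed genes 12.5% were recovered at a log2 change of 0.25, 61.5% at 0.5 and 91.5% at 1. Most differences of 0.25 would thus be missed in the main comparison.

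The libraries and the 54 gene lists were chosen with earlier results of these data known. Genes named are the called genes, the 10 of smallest p per direction, the genes the study lists, up to 4 members of smallest p per list and others where a list is described, the cytokines measured, and the 20 with the largest SD. Lars2, Foxp1, Hif1a and Arg1 were singled out after their values were seen. Promoter sequences are those of RefSeq on GRCm38.p6.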

Additional observations from a re-analysis of the deposited data

How the results depend on the processing

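Between LMA 4 to 6 and LMA 1 to 3, Gatad2b and Trim3 were called under 9 of 20 alternatives, which were other pseudocounts, filters and scalings, all reference genes, sample weights and a robust fit. Without a filter on low values 1 gene was called. There were 0 calls with LM in the fit (smallest adjusted p = 0.162 in limma, 851 genes at an unadjusted p under 0.05), with all 18 samples (0.253, 48 genes) and on the coverage level (0.427, 1173 genes). Leaving out 1 LMA library gave 0 to 2: 0 without LMA 3, 1 without LMA 2, 5 or 6 and 2 without LMA 1 or LMA 4, Trim3 in none. Without LMA 1 and LMA 4 there was 1, Lars2 (0.0358), with Gatad2b at 0.118 and Trim3 at 0.16. LMA 1 to 3 against LM gave 1 and then 0 without a filter, with all 18 samples or with these groups alone, and 0 to 6 leaving out 1 library (0 without any of LMA 1 to 3, 5, 3 and 6 without LM 1, 2 and 3). LMA 4 to 6 against LM gave 5, then 0 with a pseudocount of 0.1, without a filter or with all 18 samples, 20 with these groups alone, 43 on the coverage level, and 0 to 7 leaving out 1 library (0 without LMA 4, 5 or 6 or LM 3, 7 without LM 1 and 3 without LM 2). The median root mean square difference between LMA libraries was 0.23 in FPKM and 0.15 in coverage level. Causes of these shifts were not tested.

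No paired analysis was possible because LMA 1 to 3 and LMA 4 to 6 share no replicate number. LMA 1 to 3 and LM share numbers 1 to 3, but correlations of same-numbered deviations were 0.173, 0.176 and -0.05, and a replicate block gave 0 calls (smallest adjusted p = 0.149). No counts were used, so no limit from depth can be given.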

Other observations

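Rearranged immunoglobulin variable segments were not among the protein-coding genes tested. Their FPKM summed to 3928, 3791 and 4352 in LMA 1 to 3, to 4303, 4032 and 3317 in LMA 4 to 6 and to 2714, 3232 and 2460 in LM. Each LMA library lay above each LM library, while the LMA sets overlapped. The most abundant segment, Iglv1 of the lambda chain, was at 143, 142 and 159 FPKM in LMA 1 to 3, at 160.3, 143 and 118 FPKM in LMA 4 to 6 and at 110, 140 and 105 FPKM in LM. LMA 6 had the lowest sum of the LMA libraries, as it had the lowest B cell score, and LMA 1 and LMA 4, low in stromal transcripts, were not low in these sums.

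The 13 transcripts of the mitochondrial genome had scores of 10.0, 10.3 and 10.3 in LMA 1 to 3, 10.1, 10.2 and 10.1 in LMA 4 to 6 and 10.4 to 10.8 in LM. None of the 13 separated the LMA sets, where 15.3% of all genes did, and LMA 1 and LMA 4 were among the lowest here too. The erythroid score was 3.48, 3.90 and 3.96 against 3.56, 3.70 and 3.50, with 4.19 to 4.60 in LM.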
